A study of Mus musculus with 8 samples.

Results

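The genes described here encode the hyaluronan-binding proteoglycans called lecticans (Bcan, Ncan, Vcan and Acan), the link protein Hapln1, the transmembrane chondroitin sulfate proteoglycan Cspg5, the tenascins Tnc and Tnr, and the hyaluronan receptor Cd44. They were taken by name, and every probe set listed with that gene alone was read. That gave 26 probe sets for 9 genes, out of 45037 probe sets and 18193 genes on the array. Vcan had 8 probe sets, Hapln1 and Cd44 had 4 each, Ncan 3, Bcan and Tnc 2 each, and Acan, Cspg5 and Tnr 1 each.

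Unmodified mouse cells of 3 types, all labelled wild type, were compared on whole-genome oligonucleotide arrays. Embryonic stem (ES) cells, on 3 arrays, came from V6.5, a single pluripotent line, and were grown with leukemia-inhibiting factor on irradiated embryonic fibroblasts and then passaged on gelatin without these feeders. Neural precursor cells (NPC, 3 arrays) were obtained from ES cells by way of embryoid bodies and ITSFn medium and kept in FGF2 and a factor that the labels call EGF2; the ES line they came from is not named. Primary mouse embryonic fibroblasts (MEF, 2 arrays) were grown in serum, and neither their strain nor the age of the embryos is given. Whether the arrays of a cell type stand for separate cultures is not labelled, so p-values reflect only array-to-array spread, possibly technical in part.

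Lecticans have a head that binds hyaluronan, a middle part that carries chondroitin sulfate chains and a tail with a C-type lectin domain that binds tenascins. Link proteins clamp the lectican head to the hyaluronan chain, and hyaluronan is held at the cell surface by receptors such as CD44. In the brain this network fills the space between cells and wraps some neurons as perineuronal nets, and in cartilage its large aggrecan aggregates hold water.

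The labelled cell types carried their markers. All 3 ES markers (Pou5f1, Nanog, Zfp42) were lower in NPC and in MEF than in ES cells, and all 3 MEF markers (Col1a1, Col1a2, Thy1) were higher in MEF than in either other type. Of the 4 NPC markers, Nes, Fabp7 and Olig2 were higher in NPC than in ES cells and Sox2 was not called (log2 difference -0.98), while all 4 were lower in MEF than in NPC. Median deposited intensity per array ran from 19.1 to 31.5 and was highest on both MEF arrays, so arrays were quantile normalized. In the fit described below, 22.9% of all genes were called in NPC against ES, 25% in MEF against ES and 18.5% in MEF against NPC. The share of calls that were higher in MEF than in ES cells was 48.9% here, 65.1% after median centring and 79.4% at the deposited scaling, and against NPC it was 56.9%, 74.2% and 87.6%. Relative to quantile normalization these scalings moved the median gene by 0.21 and 0.54 on the log2 scale in MEF against ES, and by 0.19 and 0.54 in MEF against NPC. NPC 1 stood apart from NPC 2 and NPC 3, with correlations of 0.967 and 0.969 over all probe sets where those arrays had 0.987 between them.

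Levels below are normalized log2(intensity + 16) of a gene's brightest probe set, a scale whose lowest possible value is near 4. Calls needed both a log2 difference of 1 or more in size and a limma p, Benjamini-Hochberg adjusted over all genes, below 0.05. Because 16 is added, folds of dim genes are understated, and the level of one gene cannot be set against that of another. These are bulk cultures, so fewer expressing cells and less RNA per cell cannot be told apart.

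Against ES cells, 6 of the 9 genes were higher in NPC, namely Bcan, Ncan, Vcan, Cspg5, Tnc and Cd44, where 10% of all genes were higher. Acan alone was lower, where 12.9% of all genes were lower, and Hapln1 and Tnr were not called. The median log2 difference of the 9 was 2.44 against -0.05 for all genes. In MEF against ES, Vcan, Tnc and Cd44 were higher (12.2% of all genes) and Ncan was lower (12.8%), with a median of 0.49 against -0.04. In MEF against NPC, Acan, Tnc and Cd44 were higher (10.5% of all genes) and Bcan, Ncan and Cspg5 lower (7.95%), with a median of 0.15 against -0.01. The arrays of the compared groups did not overlap for 8 of 9 genes in NPC against ES (52.8% of all genes), 7 of 9 in MEF against ES (67.8%) and 9 of 9 in MEF against NPC (58%). The comparisons share arrays, so these counts are not independent of each other. The 9 genes were also chosen with earlier results of these data known, so the counts do not test whether they stand out.

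**Figure D1:**
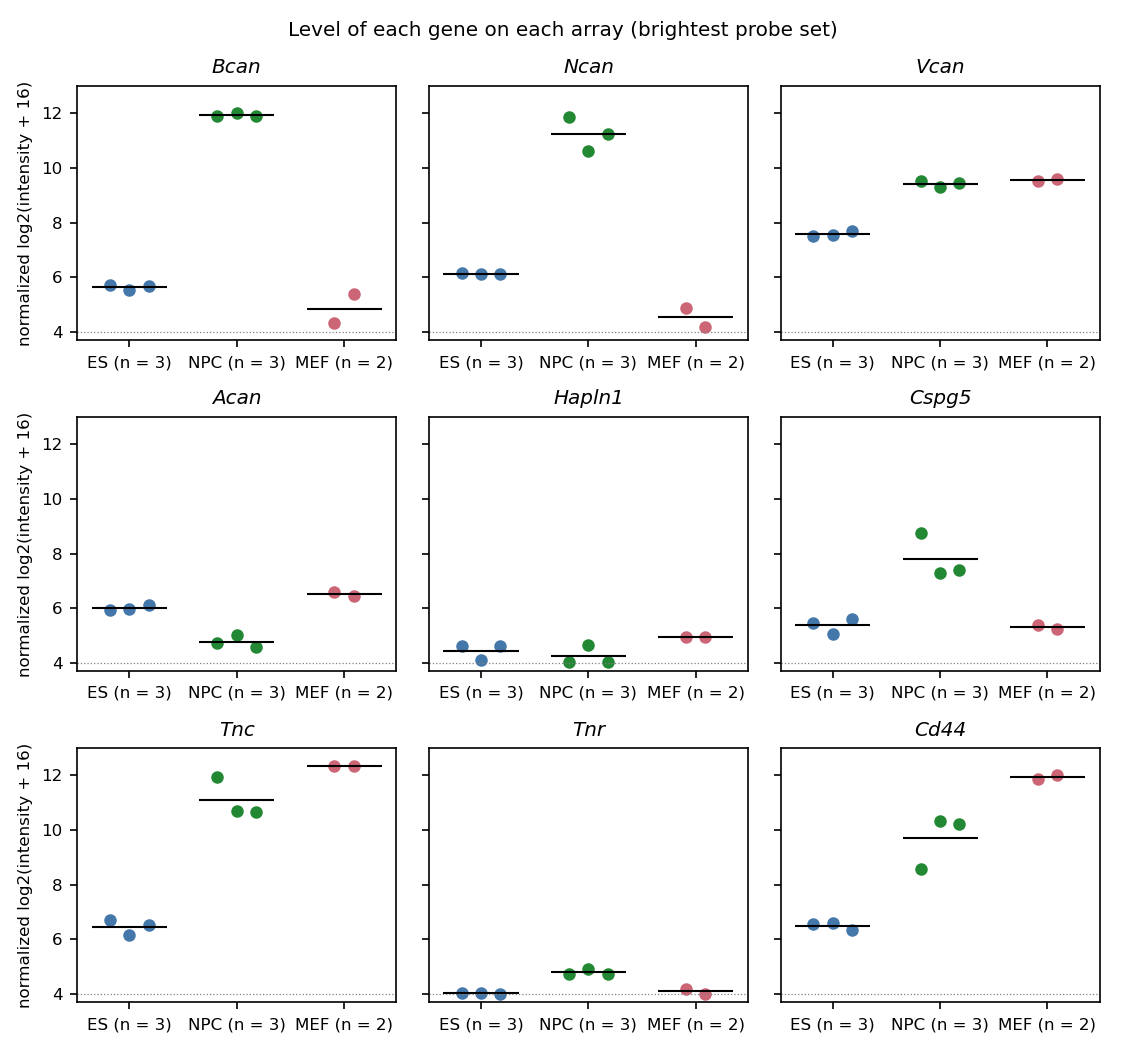
Normalized log2(intensity + 16) of the brightest probe set of each of the 9 genes (vertical axis) on each array, by cell type; points are arrays, horizontal lines are group means and the dotted line at 4 is the bottom of the scale. Bcan and Ncan are high on the 3 NPC arrays alone, Tnc and Cd44 are high on NPC and MEF arrays, and Hapln1 and Tnr stay near the bottom on all 8.

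The promoters of Bcan and Ncan, which were high in NPC alone, are shown with those of Tnc and Cd44, which were high in NPC and MEF, because these 4 genes had the largest differences among the 9. Each runs from 250 bases before to 50 after a RefSeq start (GRCm38.p6), 5′ to 3′ on the gene's strand. Capitals mark matches on either strand to 6 motifs: the TATA box (TATAAA), the E-box (CANNTG), the SOX core (ACAATG), the NFI half-site (TTGGC), the AP-1 site (TGANTCA) and the GC box (GGGCGG). Matches do not overlap in these 4 windows. The windows are chr3:88000307-88000606 for Bcan, chr8:70120795-70121094 for Ncan, chr4:64046966-64047265 for Tnc (the first of 2 starts) and chr2:102901616-102901915 for Cd44, all on the minus strand.
Bcan: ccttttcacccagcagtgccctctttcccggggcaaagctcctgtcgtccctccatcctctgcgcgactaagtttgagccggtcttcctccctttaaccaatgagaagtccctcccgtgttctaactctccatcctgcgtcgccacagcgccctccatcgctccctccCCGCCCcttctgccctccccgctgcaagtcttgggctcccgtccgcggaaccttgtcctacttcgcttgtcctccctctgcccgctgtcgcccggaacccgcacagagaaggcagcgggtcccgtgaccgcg
Ncan: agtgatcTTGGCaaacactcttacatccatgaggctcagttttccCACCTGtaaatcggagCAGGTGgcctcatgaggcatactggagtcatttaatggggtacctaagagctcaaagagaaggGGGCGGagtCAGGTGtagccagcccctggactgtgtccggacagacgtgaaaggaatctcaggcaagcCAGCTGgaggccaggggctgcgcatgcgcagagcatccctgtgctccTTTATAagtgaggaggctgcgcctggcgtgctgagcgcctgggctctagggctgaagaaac
Tnc: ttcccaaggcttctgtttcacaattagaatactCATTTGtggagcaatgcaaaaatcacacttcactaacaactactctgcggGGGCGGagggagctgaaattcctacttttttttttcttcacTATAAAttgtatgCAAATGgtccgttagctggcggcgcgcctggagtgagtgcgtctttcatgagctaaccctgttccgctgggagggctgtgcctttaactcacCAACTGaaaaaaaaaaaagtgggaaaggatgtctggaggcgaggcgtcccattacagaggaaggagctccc
Cd44: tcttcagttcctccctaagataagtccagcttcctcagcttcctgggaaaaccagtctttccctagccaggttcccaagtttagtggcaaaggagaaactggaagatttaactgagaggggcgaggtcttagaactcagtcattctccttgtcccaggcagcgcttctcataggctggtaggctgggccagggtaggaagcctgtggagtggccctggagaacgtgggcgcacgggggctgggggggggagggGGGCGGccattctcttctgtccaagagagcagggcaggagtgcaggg

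The Bcan window lies wholly inside the listed gene (chr3:87987531-88002175), so its start is an internal one. The Ncan, Tnc and Cd44 windows span the 5′ ends of their listed genes. The Bcan and Ncan windows differ in composition. Bcan has 64% G and C and 24 CpG dinucleotides, and Ncan 56.7% and 9, against medians of 52.7% and 7 over 32851 RefSeq promoters of this length. Ncan holds 4 E-boxes, a motif found in 72.3% of all these promoters, and Bcan none. A GC box, present in 35.7% of all promoters, was found in all 4 windows. The letters of the TATA box (13.6% of all) were found in Ncan and Tnc. They lay at position -11 from the start on the opposite strand in Ncan, and at -126 on the gene's strand in Tnc. The NFI half-site (46.7% of all) was found in Ncan alone of the 4, and the SOX core (12.6%) and AP-1 site (7.81%) in none. The window of the second Tnc start, not printed here, also holds an NFI half-site, at position -18 from that start. These are matches of letters in a short window and say nothing about binding.

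Bcan encodes brevican, a lectican of the central nervous system. Its brightest probe set read 5.71, 5.55 and 5.69 on the ES arrays, 11.89, 12.02 and 11.90 on the NPC arrays, and 4.33 and 5.40 on the MEF arrays. The NPC arrays lay far above all others and close together. NPC were 78-fold above ES cells (log2 difference 6.29 ± 0.23 SE, limma adjusted p = 6.78e-08) and 135-fold above MEF (limma adjusted p = 1.07e-07). That probe set carries the suffix _x_at, which marks possible shared sequence. The other probe set, without that suffix, gave 45.8-fold and 53.9-fold.

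On the brightest Bcan probe set both MEF arrays read below every ES array, but the log2 difference of -0.79 was under the minimum of 1. It was -1.29 without MEF 2 and -0.24 without MEF 1. With a pseudocount of 1 it was -1.58 and called, and with 64 it was -0.33 and not called. On the other Bcan probe set the ES and MEF arrays overlapped. There the difference was -0.24 ± 0.31 SE and not called in the fit of all probe sets (limma adjusted p = 0.631).

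Ncan encodes neurocan, the other lectican that is largely confined to nervous tissue. The values were 6.16, 6.12 and 6.13 in ES cells, 11.88, 10.63 and 11.26 in NPC, and 4.89 and 4.19 in MEF. The 3 groups did not overlap, with NPC highest and MEF lowest. NPC were 34.7-fold above ES cells (5.12 ± 0.29 SE, limma adjusted p = 9.56e-07) and 105-fold above MEF. The further 2 probe sets gave 10.8-fold and 4.51-fold for NPC over ES cells, and both were called in the fit of all probe sets.

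The fall of Ncan from ES cells to MEF was smaller, at -1.59 ± 0.33 SE (limma adjusted p = 0.00307). It was -0.73 and not called with a pseudocount of 64. In the fit of all probe sets its call ended without MEF 2 (-1.21). A second Ncan probe set was also lower (-1.34), and the remaining one was at -0.56 and not called.

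Vcan encodes versican, a lectican of many tissues, made by fibroblasts as well as neural cells. It was at 7.53, 7.55 and 7.70 in ES cells, 9.53, 9.30 and 9.47 in NPC, and 9.54 and 9.61 in MEF. Both differentiated types lay above ES cells, 3.58-fold in NPC (1.84 ± 0.09 SE, limma adjusted p = 4.45e-07) and 3.96-fold in MEF (1.98 ± 0.10 SE, limma adjusted p = 7.16e-07), against the same ES arrays. MEF and NPC differed by 0.15, with a 95% interval from -0.09 to 0.38, and were not called (limma adjusted p = 0.326); at the deposited scaling the difference was 1.06 and called.

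The Vcan probe sets did not all read alike. A second one, at 7.68, 8.17 and 8.41 in NPC and 9.10 and 9.08 in MEF, was 2-fold higher in MEF (SE 0.19 on the log2 scale), at the edge of the minimum. Its call ended without ES 1 (0.9957), ES 2 (0.9971), NPC 1 (0.80) or MEF 1 (0.99). Another gave 0.78 in MEF against NPC and was not called, or 1.25 and called with median centring. The other 5 probe sets lay between 4.02 and 5.14 on every array and none was called in any comparison. Averaging all 8 lowered the differences from ES cells to 0.69 in NPC and 0.99 in MEF, which ended both calls.

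Acan encodes aggrecan, the lectican of cartilage and of perineuronal nets. It read 5.95, 5.97 and 6.13 in ES cells, 4.75, 5.01 and 4.60 in NPC, and 6.61 and 6.45 in MEF. NPC were lowest and MEF highest with no overlap, in the dim part of the scale. NPC were 2.34-fold below ES cells (-1.23 ± 0.17 SE, limma adjusted p = 0.000228) and 3.34-fold below MEF (limma adjusted p = 7.58e-05). With a pseudocount of 64 these differences were -0.58 and 0.90 and neither was called. MEF exceeded ES cells by 0.52, under the minimum, and by 1.14, called, at the deposited scaling.

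Of 7 chondrocyte markers (Col2a1, Sox9, Col9a1, Col11a2, Matn1, Matn3 and Comp), 3 were higher in MEF than in ES cells, with Col2a1 at 7.97 and 8.02 on the MEF arrays and 5.21 to 5.54 on the ES arrays. Their summed normalized intensity was 478 to 493 in MEF, 130 to 154 in ES cells and 314 to 465 in NPC. In NPC against ES, Sox9 and Col9a1 were higher and Col2a1 and Matn3 lower, with Sox9 rising by 3.83 and Matn3 at 4.17 to 4.19 against 6.02 to 6.19. Their part in the Acan values was not tested.

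Markers of other neural cell types were read beside Bcan and Ncan. Of 6 astrocyte markers, Slc1a3, Slc1a2 and S100b were higher in NPC than in ES cells, and Gfap, Aqp4 and Aldh1l1 were not called. Gfap was at 4.91 to 5.08 in NPC and 5.16 to 5.20 in ES cells. Summed intensity of the list was 792 to 1343 in NPC against 112 to 136 in ES cells. The oligodendrocyte lineage list (5 measured) had 2 members lower and none higher in NPC, with sums of 63.3 to 92.2 against 186 to 206. Sox10 was at 5.29 to 5.47 in NPC and 5.17 to 5.49 in ES cells. Olig2, listed here with the NPC markers instead, was at 11.12 to 11.86 in NPC and 7.65 to 7.91 in ES cells. Of 6 neuron markers, Map2 (10.56 to 11.19 in NPC against 5.43 to 5.80 in ES cells) and Syt1 (6.65 to 8.82 against 4.80 to 4.94) were higher and Stmn2 was lower (4.15 to 4.60 against 11.40 to 11.45). Their sum was 1981 to 2512 in NPC and 2899 to 2967 in ES cells, and the part of these lists in the result was not tested.

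Cspg5 encodes neuroglycan C, a membrane-spanning proteoglycan of neural cells. It read 5.46, 5.08 and 5.61 in ES cells, 8.77, 7.29 and 7.41 in NPC, and 5.41 and 5.27 in MEF. NPC lay above the other types on every array, and ES cells and MEF overlapped. NPC were 5.43-fold above ES cells (2.44 ± 0.36 SE, limma adjusted p = 0.000416) and 5.59-fold above MEF (limma adjusted p = 0.00105). Without NPC 1 these differences were 1.98 and -2.02, both called. MEF and ES cells differed by -0.04 (95% interval -0.96 to 0.87).

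Tnc encodes tenascin-C, a large hexameric glycoprotein of embryonic matrix, neural stem cell niches and wounds. Its brightest probe set was at 6.70, 6.17 and 6.52 in ES cells, 11.95, 10.68 and 10.66 in NPC, and 12.35 and 12.33 in MEF. Deposited intensity ran from 50.2 to 87.4 on the ES arrays, from 1316 to 3283 on the NPC arrays and from 7172 to 7503 on the MEF arrays. NPC were 24.8-fold (4.63 ± 0.31 SE, limma adjusted p = 2.69e-06) and MEF 58.8-fold (limma adjusted p = 1.47e-06) above the same ES arrays. A second probe set read 4.03 to 4.08 in ES cells, 7.69 to 9.71 in NPC, and 8.18 and 8.38 in MEF, and was called in both comparisons with ES cells.

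Tnc was also 2.37-fold higher in MEF than in NPC (1.24 ± 0.35 SE, limma adjusted p = 0.0195). That call ended without NPC 2 (1.02, limma adjusted p = 0.0616), NPC 3 (1.02, limma adjusted p = 0.0627), MEF 1 (1.25, limma adjusted p = 0.0983) or MEF 2 (1.27, limma adjusted p = 0.0925), and with the mean of both probe sets (0.53). Without NPC 1 the difference on the brightest probe set was larger, at 1.67, and called. The second probe set gave -0.19 ± 0.48 SE and was not called, with NPC and MEF arrays overlapping. There both MEF arrays lay below NPC 1 but above NPC 2 and NPC 3, so that probe set settled no order of MEF and NPC.

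Tnr encodes tenascin-R, a tenascin made by oligodendrocytes and some neurons. It was at 4.04, 4.05 and 4.02 in ES cells, 4.74, 4.94 and 4.74 in NPC, and 4.21 and 4.02 in MEF. All 3 NPC arrays lay above the others, at deposited intensities of 9.30 to 11.8 against at most 3.36 elsewhere. The log2 difference from ES cells was 0.77 ± 0.11 SE (limma adjusted p = 0.000382) and was not called for its size. With a pseudocount of 1 it was 3.22 and called, and MEF were then lower than NPC by a called -2.68 in place of -0.70. MEF and ES cells overlapped (0.08, 95% interval -0.21 to 0.36).

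Cd44 encodes the main cell surface receptor for hyaluronan, found on fibroblasts, leukocytes and glial precursors. It read 6.55, 6.59 and 6.34 in ES cells, 8.57, 10.33 and 10.22 in NPC, and 11.88 and 12.00 in MEF. The groups did not overlap, and the order was ES, NPC, MEF. NPC were 9.26-fold above ES cells (3.21 ± 0.39 SE, limma adjusted p = 0.000125), MEF 43.7-fold above ES cells (limma adjusted p = 9.09e-06) and 4.71-fold above NPC (limma adjusted p = 0.00321). Without NPC 1 the NPC difference from ES cells was 3.81 (14-fold) and the MEF difference from NPC 1.67, both called. Of the 3 further probe sets, 2 were called in the same direction in every comparison, and the fourth stayed between 4.09 and 4.20 on all 8 arrays.

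Macrophages also carry CD44, and some of their markers were higher in MEF. Of 7, Ptprc, Cd53, Tyrobp and Lyz2 were higher in MEF than in ES cells and Laptm5 and Cd68 were lower, and 6 of 7 were higher in MEF than in NPC. Ptprc was at 6.37 and 6.05 in MEF, 4.03 to 4.27 in ES cells and 4.15 to 4.53 in NPC. The summed intensity of the list was 1055 to 1081 in MEF, 616 to 681 in ES cells and 87.6 to 113 in NPC. In NPC against ES, Laptm5 and Cd68 were lower and the other 5 were not called. The part of these markers in the Cd44 values was not tested.

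**Figure D2:**
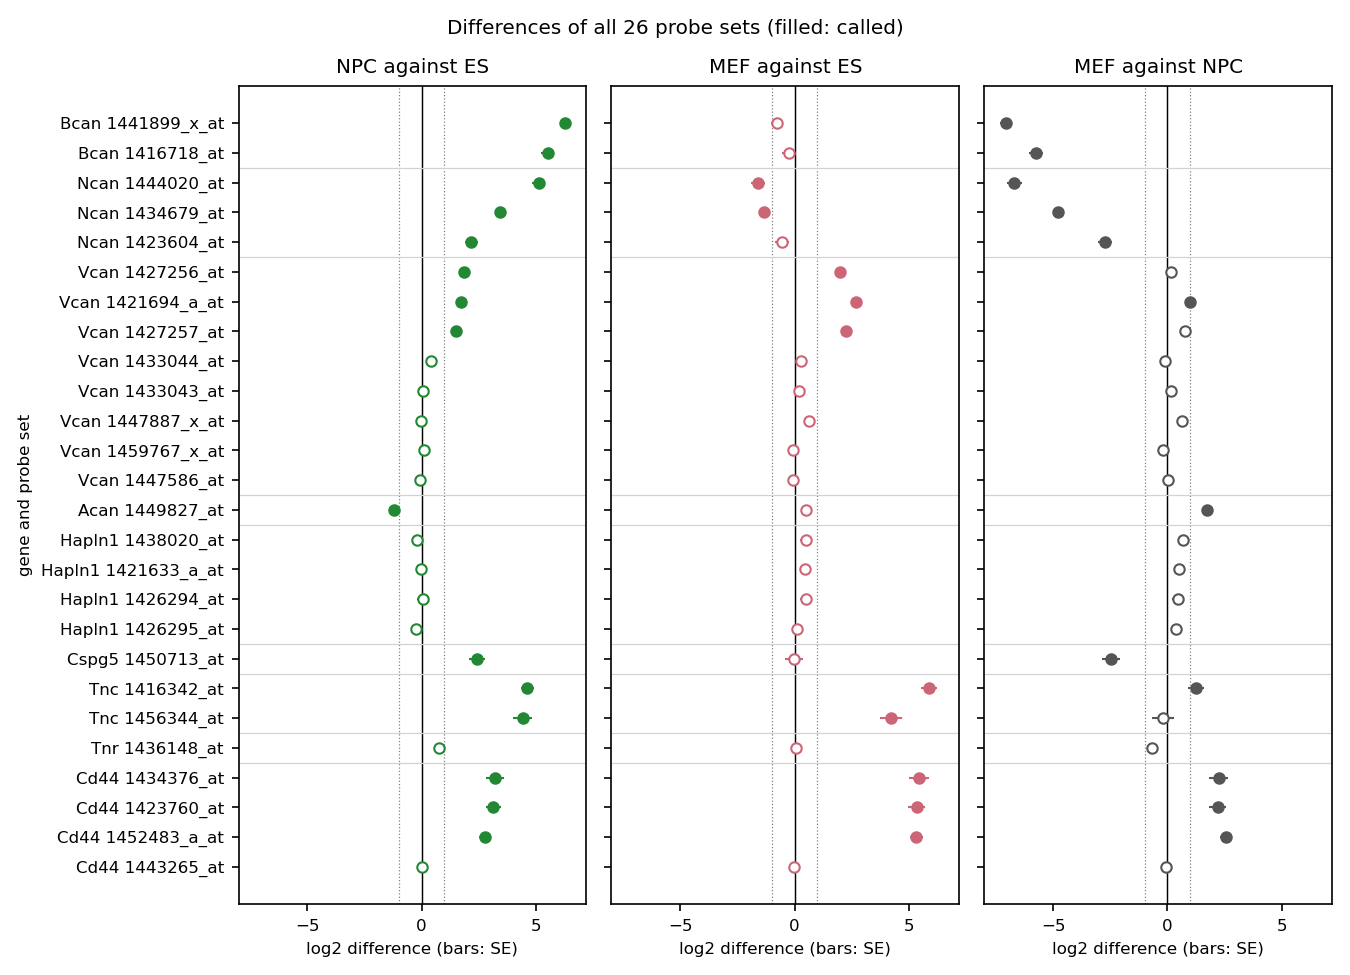
Log2 difference (horizontal axis; bars are SE) of each of the 26 probe sets (vertical axis) in NPC against ES, MEF against ES and MEF against NPC; filled points were called in the fit of all probe sets and dotted lines mark a difference of 1. Called probe sets of one gene fall on the same side in each comparison, and the third panel shows the Tnc probe sets apart, at 1.24 and -0.19.

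In the fit of all 45037 probe sets, 15 of the 26 (17.9% of all probe sets) were called in NPC against ES, 14 higher (8.99% of all) and 1 lower (8.86%). In MEF against ES it was 10 (19.4% of all), 8 higher (9.82%) and 2 lower (9.54%). In MEF against NPC it was 12 (16.2% of all), 6 higher and 6 lower (8.1% in each direction). For genes called in a comparison, further probe sets were called in the same direction in 8 of 14 cases for NPC against ES, 6 of 13 for MEF against ES and 5 of 7 for MEF against NPC, and the others were not called.

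NPC 1 differed from the other NPC arrays in opposite directions for different members. Relative to the mean of NPC 2 and NPC 3, NPC 1 was higher by 1.42 for Cspg5, 1.28 for Tnc and 0.93 for Ncan, and lower for Cd44 (-1.71). The second Tnc probe set was higher on NPC 1 by 1.86, and the 2 further bright Cd44 probe sets were lower (-1.47 and -0.96). The other Ncan probe sets were at -0.38 and -0.28, so the Ncan reading rests on a single probe set. The Bcan probe sets were at -0.07 and 0.16. Among all genes, 4.51% had NPC 1 at least 1 log2 unit from that mean; 1.04% were as far as Cd44, 1.78% as far as Cspg5 and 2.5% as far as Tnc. The calls of these genes in NPC against ES held without NPC 1.

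**Figure D3:**
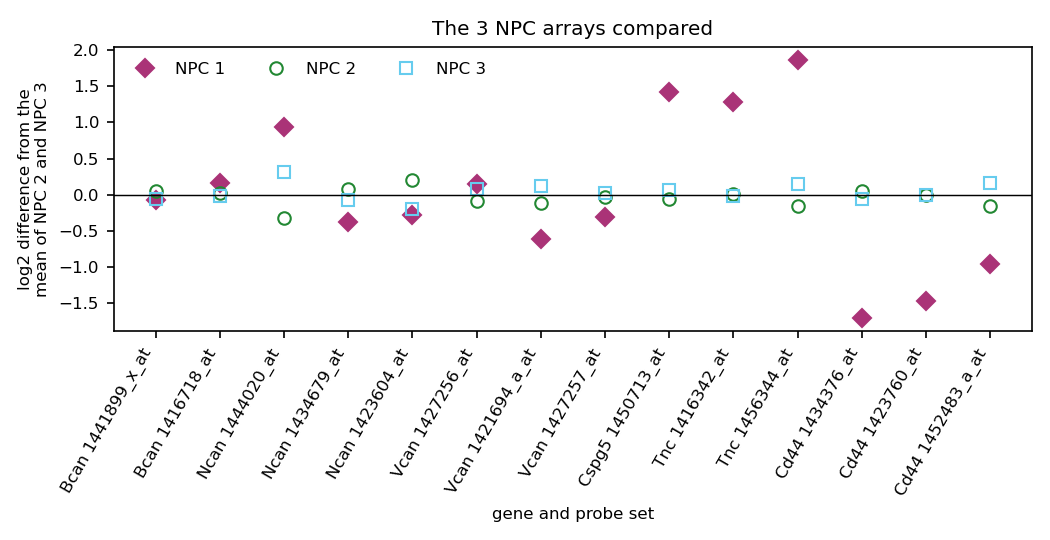
Log2 difference of each NPC array from the mean of NPC 2 and NPC 3 (vertical axis) for the 14 probe sets that reach 6 on an NPC array (horizontal axis), a limit set for this plot after the values were seen. NPC 1 (filled diamonds) is above NPC 2 and NPC 3 for Cspg5 and both Tnc probe sets, below them for 3 Cd44 probe sets, and close to them for Bcan.

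Hapln1 encodes the link protein first known from cartilage. Its brightest probe set was at 4.63, 4.11 and 4.64 in ES cells, 4.03, 4.68 and 4.03 in NPC, and 4.94 and 4.95 in MEF. Both MEF arrays lay above all others by a small margin. The difference from NPC was 0.70 ± 0.24 SE (limma adjusted p = 0.0447) and that from ES cells 0.49 ± 0.24 SE (limma adjusted p = 0.132), neither called. None of its 4 probe sets was called in any comparison, and none read above 4.96 on any array.

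Each link protein gene sits beside a lectican gene in the mouse genome (RefSeq, GRCm38.p6), with Hapln1 next to Vcan, Hapln2 next to Bcan, Hapln3 next to Acan and Hapln4 next to Ncan. The other neighbour of Bcan is Nes, which encodes nestin. No link protein gene was called by limma in any of the 3 comparisons. At an unadjusted p under 0.05 the 4 gave 0 in NPC against ES, 1 (Hapln4) in MEF against ES and 1 (Hapln1) in MEF against NPC. Beside the rise of Bcan in NPC by 6.29, Hapln2 differed by -0.10 (95% interval -0.92 to 0.71) and Nes rose by 3.99. Beside the rise of Ncan by 5.12, Hapln4 differed by -0.39 (95% interval -0.91 to 0.13). Beside the rise of Vcan by 1.84, Hapln1 differed by -0.21 (95% interval -0.70 to 0.27), and beside the fall of Acan by 1.23, Hapln3 differed by -0.24 (95% interval -0.79 to 0.31). Hapln4 was at -0.77 in MEF against ES and was called without MEF 2 (-1.13).

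Genes whose pattern over the 8 arrays was closest to a member's were ranked by the root mean square difference of their centred log2 values. For Bcan these were Pantr1 (0.31 log2 units), Ptgds (0.58) and Gpm6a (0.59), and for Ncan Bcas1 (0.45), Pantr1 (0.64) and Rfx4 (0.68). Tnc was closest to Ccnd2 (0.52), Wls (0.55) and Rbms3 (0.62), and Cd44 to Pdzrn3 (0.24), Sh3kbp1 (0.49) and Pf4 (0.50). Cspg5 was closest to Grm3 (0.16), Slc9a7 (0.21) and E130307A14Rik (0.22), with 79 genes within 0.5. For Vcan (Zmpste24, Klhl5 and Kidins220) and Acan (Slc9a3r2, Inhbb and Tlcd2), 715 and 933 genes lay within 0.5, so the 3 named for each are a few of many. Within 0.5 there was 1 gene for Bcan, 1 for Ncan and none for Tnc. A fixed distance takes in more genes where a member's own differences are small, so these counts do not show how common a pattern is.

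Counts of each related list below stand beside the shares of all genes called. In NPC against ES, 10% of all genes were higher and 12.9% lower (median -0.05). In MEF against ES it was 12.2% and 12.8% (median -0.04), and in MEF against NPC 10.5% and 7.95% (median -0.01). Of 16 measured genes that make, bind or degrade hyaluronan, 4 were higher and 2 lower in MEF than in ES cells (none lower after median centring). Against NPC, 4 were higher (7 at the deposited scaling) and none lower in MEF (medians 0.23 in each comparison). At an unadjusted limma p under 0.05 none of the 16 was lower in MEF than in NPC either. Has2, the main hyaluronan synthase of mesenchyme, read 5.34, 5.47 and 5.30 in ES cells, 4.31, 4.41 and 4.06 in NPC, and 10.06 and 9.95 in MEF. MEF were 24.9-fold above ES cells and 53.7-fold above NPC, with no overlap (limma adjusted p = 1.1e-07 and 3.61e-08). Cemip, a hyaluronan-degrading protein, was 8.57-fold above ES cells and 10.5-fold above NPC.

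In NPC against ES, 1 hyaluronan gene was higher and 3 were lower (median -0.21 against -0.05 for all genes). The hyaluronan-binding Tnfaip6 was 6.2-fold higher, at 6.61, 7.87 and 7.48 in NPC against 4.55 to 4.85 in ES cells. Has2 was lower by a called -1.11 (-0.41 and not called with a pseudocount of 64), as were Cemip2, a membrane hyaluronidase (-1.47), and Hmmr, a hyaluronan receptor that also serves the mitotic spindle (-1.14, and -0.17 without probe sets of shared sequence). Hmmr and Cemip2 were also lower in MEF than in ES cells (-1.28 and -1.06). Median centring ended both calls (-0.79 and -0.58), as did the deposited scaling (-0.46 and -0.26), and that of Cemip2 with the replicate block (-0.97) and without MEF 1 (-0.99).

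Enzymes that build and sulfate chondroitin chains were more often higher than lower. Of 22 measured, 8 were higher (5 with a pseudocount of 64) and 2 lower in NPC than in ES cells (median 0.28), and 14 were higher and none lower in MEF (median 1.78 against -0.04 for all genes); at an unadjusted limma p under 0.05 it was 17 and 0. Chst7, a chondroitin 6-sulfotransferase, was at 4.22, 4.96 and 4.82 in ES cells, 9.68, 9.77 and 9.60 in NPC, and 6.67 and 6.44 in MEF. NPC were 32.4-fold above ES cells (limma adjusted p = 9.21e-08) and 8.76-fold above MEF. Csgalnact1, which starts the chain, was 13.4-fold higher in NPC and 9.02-fold higher in MEF than in the same ES arrays.

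On the other side, Chst15, which makes disulfated chondroitin, and Dse, an epimerase that turns chondroitin into dermatan sulfate, fell from ES cells to NPC (-1.76 and -1.47; Chst15 was at -0.78 and not called with a pseudocount of 64). In MEF against NPC, 7 were higher and Chst7 alone was lower, and the count of higher genes was 13 at the deposited scaling. Papss2, which makes the sulfate donor, was 18.8-fold and Dse 5.93-fold higher in MEF than in NPC. Papss2 was also 11.9-fold higher in MEF than in ES cells.

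Of 13 other tenascins and chondroitin sulfate proteoglycans, 2 were higher and 3 lower in NPC than in ES cells (median -0.09). Of all genes, 10% were higher and 12.9% lower there (median -0.05). In MEF against ES, 6 of the 13 were higher and 2 lower (median 0.36), where 12.2% and 12.8% of all genes were (median -0.04). Ptprz1, a receptor phosphatase of glial precursors whose secreted form is the proteoglycan phosphacan, read 5.17, 4.18 and 4.79 in ES cells, 10.97 to 11.86 in NPC, and 7.62 and 7.75 in MEF. It was 94.5-fold higher in NPC and 7.84-fold higher in MEF than in ES cells, and 12.1-fold lower in MEF than in NPC. Bgn, which encodes the matrix proteoglycan biglycan, was 8.15-fold lower in NPC and 35.3-fold higher in MEF than in ES cells.

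In MEF against NPC, 4 of these 13 were higher and Ptprz1 alone was lower, or 2 lower without NPC 1 or NPC 3 (median 0.37). Bgn was at 12.74 on both MEF arrays and 4.43 to 4.73 in NPC, and Dcn, which encodes decorin, was 6.48-fold higher in MEF. The collagen IX gene Col9a1 was 2.82-fold higher in NPC than in ES cells, and Col9a2 was lower in NPC (-1.23) and in MEF (-1.21), where Spock2 was also lower (-1.25). All 4 of these calls ended with a pseudocount of 64 (0.79, -0.44, -0.44 and -0.63), and that of Spock2 also at the deposited scaling (-0.90).

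Proteases that cut lecticans were higher in several cases. Among all genes, 10% were higher in NPC against ES and 12.2% in MEF against ES. Of 8 genes (7 Adamts proteases and their inhibitor Timp3), 3 were higher and none lower in NPC than in ES cells (median 0.51; 4 and 1 without NPC 1), and 4 were higher and none lower in MEF (median 1.53); an unadjusted limma p under 0.05 added 1 higher in NPC and none lower in either. Adamts9 was at 8.06, 10.14 and 10.42 in NPC against 6.24 to 6.75 in ES cells and 6.56 and 6.28 in MEF. It was 8.64-fold higher in NPC than in ES cells and 8.69-fold lower in MEF than in NPC, or 14.7-fold and 14.8-fold without NPC 1. Adamts4 was 3.97-fold higher in NPC than in ES cells. Adamts5, an aggrecanase, read 9.16 and 9.25 in MEF, 5.27 to 5.51 in ES cells and 4.74 to 5.96 in NPC, so MEF were 14.3-fold and 16.6-fold higher. Timp3 was 15.9-fold above ES cells and 17.5-fold above NPC in MEF, or 32.7-fold above NPC without NPC 1, and in MEF against NPC 3 of the 8 were higher and 1 lower (median 0.34).

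Receptors and partners of these proteins were higher in 8 and lower in 2 of 22 cases in NPC against ES (median 0.60), or 7 and 4 without NPC 1. Of all genes, 10% were higher and 12.9% lower in that comparison (median -0.05). In MEF against ES, 7 were higher and 3 lower (median 0.37), and in MEF against NPC 7 were higher and 6 lower (median -0.32; 8 lower without NPC 1, and 3 at the deposited scaling). Egfr, the EGF receptor, to which EGF-like repeats of tenascin-C can bind, was 46.2-fold higher in NPC and 13.3-fold higher in MEF than in ES cells. Ezr, which encodes ezrin, a linker of CD44 to actin, was 8.91-fold lower in NPC and 3.89-fold lower in MEF; averaging its probe sets ended the MEF call (-0.11). Erbb3 was 7.04-fold lower in NPC and 3.81-fold lower in MEF.

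Itga8, an integrin subunit that binds tenascin-C, was 9.17-fold higher in NPC than in ES cells, at 5.92, 9.35 and 9.31 against 4.73 to 5.14, or 20.6-fold without NPC 1. It was also 5.48-fold higher in MEF, at 7.43 and 7.47, than in ES cells. MEF and NPC overlapped and were not called (-0.74), with NPC 1 below both MEF arrays and NPC 2 and NPC 3 above both. Itga9, another tenascin-binding integrin subunit, was 4.03-fold lower in MEF than in NPC (limma adjusted p = 0.0117), or 6.37-fold without NPC 1. That call ended without MEF 1 (-1.96, limma adjusted p = 0.0725) or MEF 2 (-1.98, limma adjusted p = 0.0691) and when its probe sets were averaged (-1.23). Nrcam, a neural adhesion molecule, was 6.12-fold lower in MEF than in NPC, and Itgb3 6.46-fold higher. Fbln2, a lectican-binding fibulin, was at 11.81 and 11.88 in MEF, 6.64 to 6.82 in ES cells, and 9.22, 5.27 and 5.61 in NPC. MEF were 34.2-fold above ES cells and 35.4-fold above NPC, the latter 86.8-fold without NPC 1 and 21.4-fold without NPC 2.

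**Figure D4:**
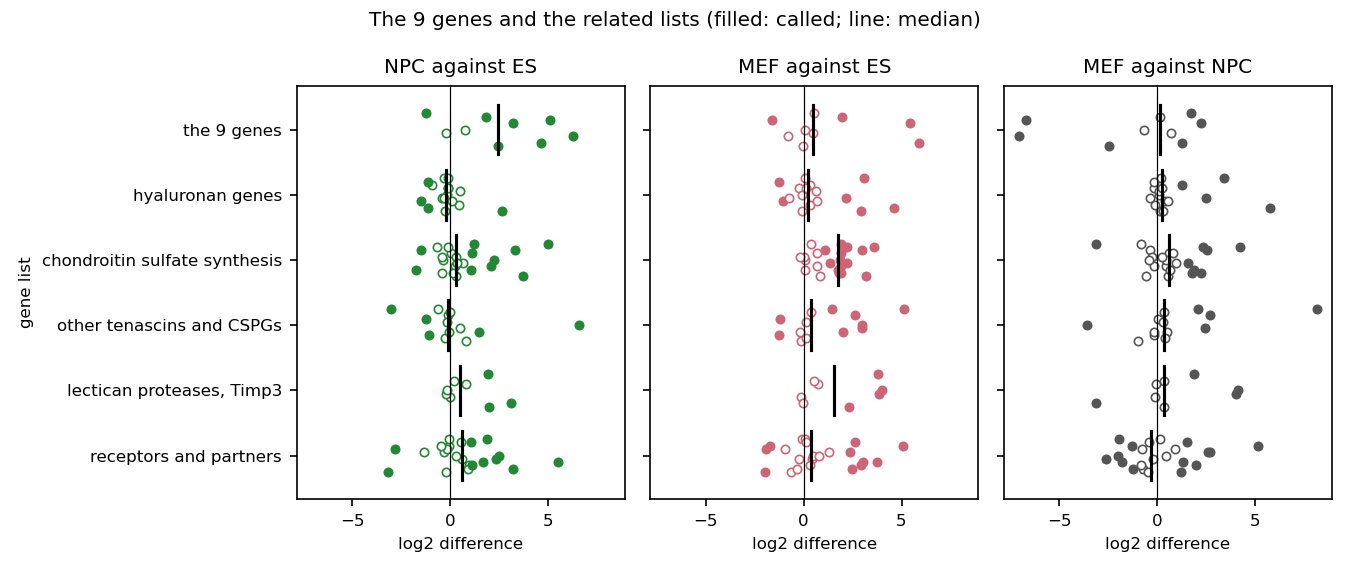
Log2 difference (horizontal axis) of the 9 genes and of the genes of the 5 related lists (vertical axis) in each comparison; each point is a gene, filled where called, and black lines are medians. The 9 genes have a median of 2.44 in NPC against ES, and the chondroitin sulfate list has a median of 1.78 in MEF against ES.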

How the data were processed

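Messenger RNA of 8 arrays (3 ES, 3 NPC, 2 MEF) was analysed. The authors deposited 1 linear intensity per probe set. The submitters' processing notes name GCOS 1.4; how it summarized, background-corrected and scaled the arrays is not given in the sources used here. Of 45101 probe sets, 64 controls were left out, and 34945 of the remainder were listed with a single gene by the platform annotation, whose symbols were updated by gene ID. Detection calls were not used here, and the number of arrays limits the precision.

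Values were transformed to log2(intensity + 16), quantile normalized and fitted in R 4.3.3 with limma 3.58.1 (1 model of 3 groups, variance trend), once per gene (brightest probe set) and once per probe set. Intervals come from limma's moderated errors. The fit was tested on simulated data with independent normal noise, which does not represent an array that stands apart or arrays of a shared culture. All members, called extremes of each related list, the link protein genes and the 3 genes of closest pattern are named. Members and lists were chosen with earlier results of these data known. Hyal1, Xylt1 and Fbn1 were not analysed here.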

Additional observations from a re-analysis of the deposited data

How the results depend on the processing

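The number of member genes called was 7, 4 and 6 in NPC against ES, MEF against ES and MEF against NPC, and ran from 6 to 8, 3 to 6 and 5 to 8 over 19 alternatives each; with one array left out it was 7 to 7, 4 to 5 and 5 to 6. In MEF against ES and MEF against NPC, the highest counts of 6 and 8 came with no minimum difference. The number of all genes called moved too, and in NPC against ES was 2638 with a pseudocount of 64 and 5262 with 1. With a pseudocount of 64 and at the deposited scaling it was 2948 and 5472 in MEF against ES, and 2110 and 5101 in MEF against NPC. Member probe sets called were 15, 10 and 12, and ran from 13 to 16, 8 to 12 and 10 to 14. Of 453 recomputed member differences, 432 kept direction and call, 10 lost and 6 gained a call, and 5 uncalled ones changed sign. With arrays left out in turn, Cspg5 in MEF against ES ran from -0.20 (without ES 2) to 0.071 (without ES 3) and was at 0.30 at the deposited scaling, and Tnr ran from -0.018 (without MEF 1) to 0.16 (without MEF 2) and was at -0.21 with median centring. Link protein genes, uncalled in these cases, also changed sign. Hapln2 ran from -0.46 to 0.18 in NPC against ES, from -0.60 to 0.11 in MEF against ES and from -0.47 to 0.21 in MEF against NPC, where it was at 0.094 at the deposited scaling. Hapln3 in MEF against ES ran from -0.32 to 0.056 and was at 0.23 at the deposited scaling, and Hapln4 in MEF against NPC ran from -0.75 to 0.0086. The cause of these changes was not tested. A pseudocount of 64 ended calls of the dim Acan and Ncan differences by construction, since it compresses low values. Leaving out the dimmest 40% of genes left Hapln1 and Tnr without a value. Arrays of the same number share nothing in the labels, and their deviations correlated at -0.02 to 0.04; with the replicate block the counts stayed at 7, 4 and 6 genes and 15, 10 and 12 probe sets.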

Other observations

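Among the related genes, several departed on NPC 1 from the other NPC arrays, as Tnc and Cd44 did; they were picked after their values were seen, and the cause was not tested. The tenascin-binding integrin subunits Itga8 and Itga9 were at 5.92 and 6.30 on NPC 1, against 9.35 and 8.15 on NPC 2 and 9.31 and 8.30 on NPC 3. Tnc was higher on NPC 1, at 11.95 against 10.68 and 10.66. Adamts9 was also lower on NPC 1, at 8.06 against 10.14 and 10.42. The matrix genes Fbln2 and Timp3 went the other way, at 9.22 and 7.04 on NPC 1, against 5.27 and 4.18 on NPC 2 and 5.61 and 4.68 on NPC 3, while Chst7 was at 9.68, 9.77 and 9.60.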
